A study of Mus musculus with 6 samples.

Results

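The IFIT genes (interferon-induced proteins with tetratricopeptide repeats) were examined in RNA-seq data from the vestibular sensory epithelium of mice. The 5 genes were taken by symbol from the table of 52636 genes, and they were Ifit1 (ENSMUSG00000034459.8), Ifit2 (ENSMUSG00000045932.12), Ifit3 (ENSMUSG00000074896.3), Ifit3b (ENSMUSG00000062488.9) and Ifit1bl1 (ENSMUSG00000079339.6). The table holds 1 further symbol of the same name, Ifit1bl2, whose values are given beside the 5. The study compared 3 Control mice, which drank plain water, with 3 mice that drank 30 mM 3,3'-iminodipropionitrile (IDPN), a nitrile toxic to the hair cells (HCs) of the inner ear, for 8 weeks. All 6 were male 129S1/SvImJ mice from a local colony, 2 to 4 months old, and the labels name no transgene or other agent. Each library came from 1 animal, with its 2 utricles and 6 cristae pooled, so it mixes HCs, supporting cells and any other cells left on the dissected epithelium. In the labels, all 3 Control mice have codes with 1 prefix, which is absent from the codes of the IDPN mice, and what this prefix stands for cannot be told apart from the treatment. IDPN 2 and IDPN 3 have a prefix in common, and IDPN 1 has another.

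IFIT proteins are built from repeated helical hairpins and are made in large amounts when a cell responds to interferon or to viral RNA. IFIT1 binds RNA whose cap lacks the methyl marks that host messenger RNAs carry, and it blocks the translation of such RNA. Among the human proteins, IFIT3 binds IFIT1 and steadies it, whereas IFIT2 forms complexes with both. Whether the mouse proteins do the same was not examined here. Transcription of the family is driven through interferon-stimulated response elements (ISREs), short promoter motifs read by the interferon regulatory factors, IRF9 among them. In mouse, Ifit3b is a close copy of Ifit3, and Ifit1bl1 and Ifit1bl2 are relatives of Ifit1 whose roles are less well known.

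The 6 genes lie side by side on chromosome 19 of the GRCm38 build. In the GENCODE M21 annotation Ifit2 spans 34550694 to 34576419 (plus strand), Ifit3 34583531 to 34588731 (plus), Ifit1bl1 34592891 to 34601956 (minus), Ifit3b 34607970 to 34613401 (plus), Ifit1bl2 34617049 to 34640743 (minus) and Ifit1 34640871 to 34650009 (plus). No exon of any of them overlapped an exon of another gene. The transcripts of Ifit3 and Ifit3b nevertheless share long stretches. Of the windows of 76 bases (the read length) in Ifit3, 40.7% occur without mismatch in Ifit3b, and 35.3% of those in Ifit3b occur in Ifit3. The corresponding share was 5.11% for Ifit1, all of it with Ifit1bl2, 1.83% for Ifit1bl1, also with Ifit1bl2, and 0 of 3921 windows for Ifit2. The split of reads between Ifit3 and Ifit3b is therefore less certain than the count of either Ifit1 or Ifit2, and their sum is given as well.

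The promoter windows of 4 members are shown because they carry the motif through which the family answers interferon. Each is the RefSeq window (GRCm38.p6) from 250 bases before to 50 bases after the annotated start, printed 5′ to 3′ on the gene's strand, with capitals marking each match to the ISRE core GAAANNGAAA, searched on both strands. The windows are Ifit3 (chr19:34583279-34583578, plus strand), Ifit3b (chr19:34607707-34608006, plus), Ifit1 (chr19:34640639-34640938, plus) and Ifit1bl1 (chr19:34601919-34602218, minus).
Ifit3: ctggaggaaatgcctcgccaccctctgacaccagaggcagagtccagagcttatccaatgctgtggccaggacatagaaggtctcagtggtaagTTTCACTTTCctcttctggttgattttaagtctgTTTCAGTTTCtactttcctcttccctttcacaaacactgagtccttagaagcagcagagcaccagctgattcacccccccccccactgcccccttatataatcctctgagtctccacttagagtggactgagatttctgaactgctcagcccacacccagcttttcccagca
Ifit3b: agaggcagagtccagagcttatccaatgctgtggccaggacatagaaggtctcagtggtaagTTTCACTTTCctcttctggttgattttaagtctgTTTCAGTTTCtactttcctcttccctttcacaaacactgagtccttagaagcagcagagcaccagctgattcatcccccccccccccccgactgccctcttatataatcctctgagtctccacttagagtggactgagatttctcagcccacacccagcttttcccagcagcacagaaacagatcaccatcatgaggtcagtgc
Ifit1: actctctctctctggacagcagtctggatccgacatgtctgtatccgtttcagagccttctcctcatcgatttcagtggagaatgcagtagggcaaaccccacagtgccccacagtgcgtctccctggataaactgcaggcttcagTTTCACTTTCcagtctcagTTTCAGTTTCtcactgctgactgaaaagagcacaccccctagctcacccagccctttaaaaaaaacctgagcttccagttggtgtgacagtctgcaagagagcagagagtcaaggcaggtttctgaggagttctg
Ifit1bl1: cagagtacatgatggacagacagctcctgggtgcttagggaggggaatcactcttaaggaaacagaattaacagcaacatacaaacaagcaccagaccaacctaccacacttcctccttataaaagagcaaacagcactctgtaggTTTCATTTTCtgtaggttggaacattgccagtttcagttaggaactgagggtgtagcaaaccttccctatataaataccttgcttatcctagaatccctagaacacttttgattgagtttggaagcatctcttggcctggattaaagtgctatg

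Ifit3 held 2 ISRE cores, 156 and 122 bases before its start, and Ifit3b held 2 of identical sequence, 188 and 154 bases before its start. Ifit1 held 2 as well, at 104 and 85 bases. These carry the same letters as the pair in Ifit3, in capitals above. The single match in the Ifit1bl1 window lay 104 bases before the start, and its second annotated start had 1 match at 23 bases. Neither of the 2 RefSeq windows of Ifit2 held a match, which says only that these letters are not in those windows. The Ifit1 window overlaps 1 of the 2 windows of the oppositely directed Ifit1bl2 by 245 bases, so both matches are shared between the 2 genes. The other Ifit1bl2 window held no match. Of all 32851 RefSeq promoter windows of this length, 3.44% held at least 1 match and 0.225% held 2 or more. A match is a description of sequence and not evidence of binding.

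Total estimated counts ran from 40474847 to 43566332 per library. The libraries looked like the labelled tissue, with all 7 HC markers and all 6 supporting cell markers detected in every library. The summed HC markers were lower in IDPN (18592 to 18986 normalized counts, that is, counts divided by the library's size factor) than in Control (25255 to 29175). Of the 7 genes 4 were downregulated, against 604 of all 17650 genes tested. Myo7a (log2-Fold_Change 0.015), Espn (−0.18) and Myo6 (−0.21) were not called. In bulk tissue, fewer cells of a type and less RNA per cell cannot be told apart. The macrophage markers, a list of 10 genes, summed to 5851 to 7573 in Control and 8366 to 12894 in IDPN. In IDPN 1, 2 and 3 the sums were 8491, 12894 and 8366, and Lyz2 alone supplied 5878, 9133 and 5825 of them. Of these 10 genes 8 had a higher mean in IDPN and the median log2-Fold_Change was 0.53, but Lyz2 alone was called (0.77, DESeq2 Padj = 0.00401). The other 9 ran from −0.098 (Cx3cr1) to 0.80 (C1qc, DESeq2 Padj = 0.0713). Markers of other white blood cells were scarce. The 5 neutrophil markers summed to 21.8 to 34.6 in Control and 20.5 to 67.3 in IDPN, with Ly6g at 0 throughout. The 7 lymphocyte markers summed to 131 to 235 and 119 to 171, nearly all of it Cd79a, with Ncr1 at 0 throughout and Cd3e at no more than 1.87. The 3 plasmacytoid dendritic cell markers summed to 57.7 to 112 and 70.9 to 129. Of 4 globin genes 3 were upregulated, against 410 of all 17650 genes tested, and the groups overlapped for all 4. The edgeR quasi-likelihood test and DESeq2 without IDPN 3 called 0 of the 4, and DESeq2 with total-count scaling called 4. The sums of the 4 were 16020 to 36495 in Control and 34494 to 48882 in IDPN, lowest of the IDPN libraries in IDPN 3. The part of these cells in the IFIT values was not tested.

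Ifit3 and Ifit3b were upregulated after IDPN, while Ifit1, Ifit2 and Ifit1bl1 did not reach the threshold. A gene was called when its DESeq2 Padj (Benjamini-Hochberg, over all genes tested) was under 0.05 and its fold change above 1.5. By this rule 2 of the 5 genes were upregulated and none was downregulated. Over all 17650 genes tested, 2.32% were upregulated. An unadjusted p under 0.05 was found for 4 of the 5. The share of all genes with such a p is not given, here or for the tests below, so these unadjusted counts only describe the members. All 5 genes, as well as Ifit1bl2, passed the filter on low counts. For Ifit1, Ifit3 and Ifit3b, 3 of the 5, every IDPN library lay above every Control library, a pattern seen in 11.1% of the genes tested.

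Ifit3 had the highest mean level per kilobase of the family in both groups. Here and below, values are listed for replicates 1, 2 and 3 of each group. Normalized counts of Ifit3 amounted to 545, 1027 and 464 among Control mice, and to 1242, 2859 and 14053 among IDPN mice. The groups did not overlap, but IDPN 1 lay close to Control 2, and IDPN 3 lay far above the other 2 IDPN libraries. The log2-Fold_Change was 3.16 (SE 1.03, DESeq2 Padj = 0.0383), with a 95% Wald interval from 1.14 to 5.18.

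Ifit3b, the copy of Ifit3, was lower than Ifit3 in every library. It had 139, 342 and 109 normalized counts in Control and 468, 906 and 4659 in IDPN. Again the groups did not overlap, Control 2 was the highest of its group and IDPN 3 the highest of all. The log2-Fold_Change was 3.35 (SE 1.03, interval 1.34 to 5.37, DESeq2 Padj = 0.0235), so both estimates have wide intervals that cover one another. The sum of Ifit3 and Ifit3b, which does not depend on how reads were divided between the 2, was 875 ± 431 (SD, n = 3) in Control and 8062 ± 9280 (SD, n = 3) in IDPN. In IDPN the spread exceeded the mean. Ifit3b supplied 19.1% to 25.0% of this sum in Control and 24.1% to 27.3% in IDPN.

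Ifit1, the RNA cap sensor, had 666, 671 and 980 normalized counts in Control and 1100, 2489 and 10042 in IDPN. Every IDPN library was higher than every Control library, with IDPN 1 and Control 3 close together. The log2-Fold_Change of 2.56 (SE 0.90, interval 0.79 to 4.33) did not reach the threshold (DESeq2 Padj = 0.0657). Without IDPN 3 the estimate fell to 1.21 while its SE fell to 0.33, and Ifit1 was then called (DESeq2 Padj = 0.0117).

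Ifit2 differed from these 3. It had 490, 352 and 369 normalized counts in Control and 482, 338 and 1188 in IDPN. IDPN 1 lay within the Control range and IDPN 2 just under it, so the groups overlapped and only IDPN 3 stood above them. The log2-Fold_Change was 0.73 (SE 0.35, interval 0.046 to 1.42, DESeq2 Padj = 0.247), and it was 0.025 without IDPN 3 (DESeq2 Padj = 0.985). It was called without IDPN 2 (1.05, DESeq2 Padj = 0.0351).

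The Ifit1 relatives were scarce. Ifit1bl1 had 26.7, 38.1 and 21.4 normalized counts in Control and 32.3, 5.02 and 88.7 in IDPN. IDPN 2 was the lowest library and IDPN 3 the highest. Its log2-Fold_Change of 0.55 (SE 0.72, interval −0.86 to 1.97, DESeq2 Padj = 0.789) covered both directions, and it turned to −0.61 without IDPN 3. Ifit1bl2 had 14.6, 28.9 and 2.67 normalized counts in Control and 14.1, 17.1 and 19.6 in IDPN, with a log2-Fold_Change of 0.15 (SE 0.81, interval −1.43 to 1.73, DESeq2 Padj = 0.961). Through 1 of its RefSeq windows it shares ISRE matches with Ifit1, while its other window held none. In IDPN 3, where Ifit1 had its highest level, Ifit1bl2 stood at 1.28 times its Control mean. At these counts, changes within the bounds of each gene's interval were not excluded.

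**Figure D1:**
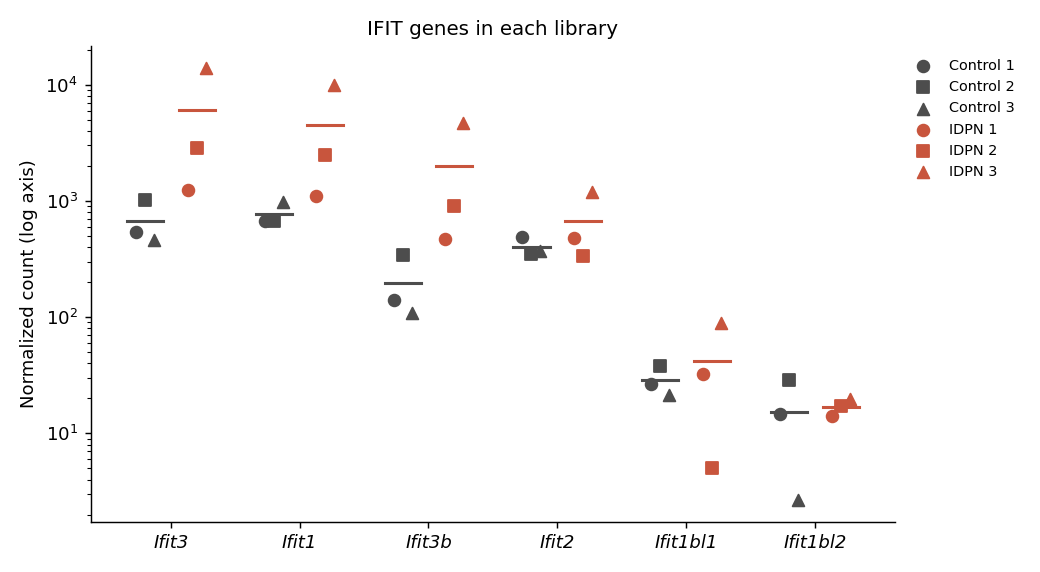
Normalized counts (log axis) of the 5 IFIT genes and Ifit1bl2 in each library, with Control in grey, IDPN in red, one marker shape per animal and a line at each group mean. For Ifit3, Ifit1 and Ifit3b all IDPN points lie above all Control points, IDPN 3 is far above the rest, and for Ifit2 IDPN 3 is the only library above the Control range.

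Per kilobase of merged exons, the Control level of Ifit3 was 389 ± 175 normalized counts, that of Ifit1 291 ± 67.9, that of Ifit2 103 ± 19.1, that of Ifit3b 98.4 ± 63.1, that of Ifit1bl1 12.7 ± 3.78 and that of Ifit1bl2 4.56 ± 3.89 (SD, n = 3 each). Ifit3 did not differ from Ifit1 beyond the spread between animals, nor did Ifit2 from Ifit3b. The steps from Ifit1 down to Ifit2 and from Ifit3b down to Ifit1bl1 showed no overlap between libraries. In IDPN the levels per kilobase were 3468 ± 3998 for Ifit3, 1711 ± 1812 for Ifit1, 1005 ± 1152 for Ifit3b and 171 ± 116 for Ifit2 (SD, n = 3 each). Per kilobase, Ifit3b was higher than Ifit2 in each IDPN library, and among the Control libraries only in Control 2.

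The 5 genes summed to 1867, 2430 and 1944 normalized counts in Control and 3324, 6597 and 30031 in IDPN. The Control sums lay close together (2080 ± 305, SD, n = 3), whereas the IDPN sums spread widely (13317 ± 14566, SD, n = 3). Relative to the Control mean they were 1.60, 3.17 and 14.4 times as high. The ratio of the group means was 6.40, or 2.68 on the log2 scale, and IDPN 3 alone supplied 75.2% of the IDPN total. The mean of IDPN 1 and IDPN 2 was still 2.39 times the Control mean. No p is given for the sum, because its members were chosen together.

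**Figure D2:**
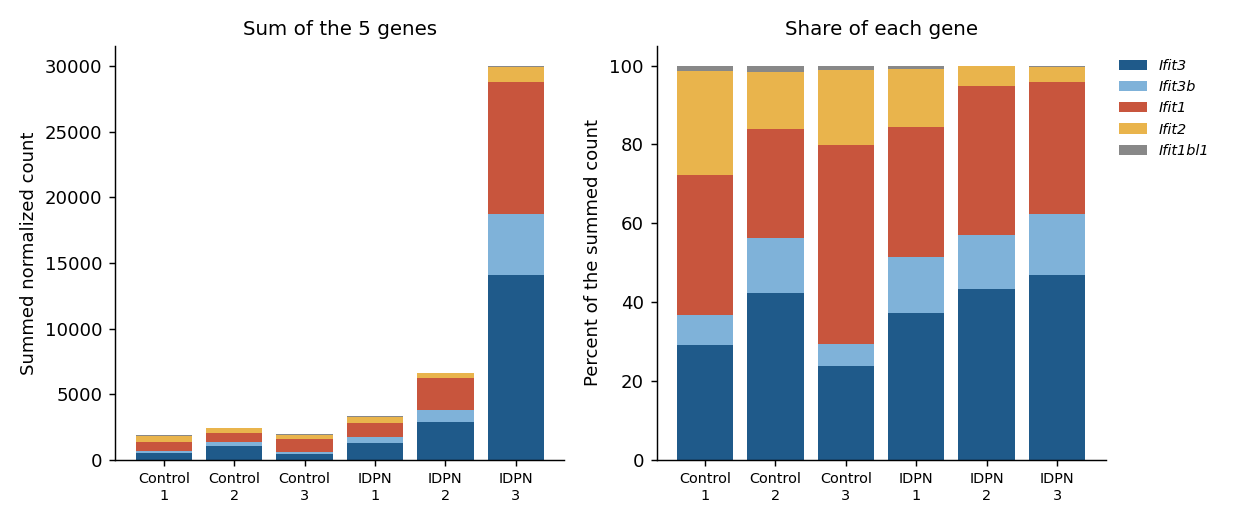
Left, summed normalized counts of the 5 IFIT genes in each library, stacked by gene; right, the percent of that sum supplied by each gene. IDPN 3 reaches 30031 where the Control libraries reach at most 2430, and Ifit2 is a smaller share in IDPN 2 and IDPN 3 than in the other 4 libraries.

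The makeup of the sum differed between animals. Ifit2 supplied 26.3%, 14.5% and 19.0% of it in Control and 14.5%, 5.13% and 3.96% in IDPN. Control 2 and IDPN 1 were alike in this share. Ifit3 supplied 29.2%, 42.3% and 23.8% in Control and 37.4%, 43.3% and 46.8% in IDPN, and Ifit1 50.4% in Control 3 but 27.6% in Control 2. The ratio of Ifit3 to Ifit2 counts, which no scaling of the libraries can change, was 1.11, 2.92 and 1.26 in Control and 2.57, 8.45 and 11.8 in IDPN. IDPN 1 fell within the Control range, and the other 2 IDPN libraries lay above it. The ratio of Ifit1 to Ifit2 behaved in the same manner, at 1.36, 1.90 and 2.66 in Control and 2.28, 7.36 and 8.45 in IDPN. This split of the IDPN mice is also that of their code prefixes, whose part in it was not tested.

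The calls changed when single libraries were left out. Each such fit also had fewer animals in 1 group, and these 2 differences were not told apart. Ifit3b was called in 4 of the 6 fits that each left out 1 library, with DESeq2 Padj of 0.177 without Control 1 and 0.0950 without Control 3 in the other 2. Ifit3 was called only without IDPN 1 (DESeq2 Padj = 0.00121), and had DESeq2 Padj values from 0.0515 to 0.234 in the other 5. Without IDPN 3 the log2-Fold_Change was 1.60 for Ifit3 (DESeq2 Padj = 0.161) and 1.80 for Ifit3b (DESeq2 Padj = 0.00426), and 2 of the 5 genes, Ifit1 and Ifit3b, were called, against 1.57% of the genes tested in that fit. The edgeR quasi-likelihood test called 0 of the 5, with 3 at an unadjusted p under 0.05, and upregulated calls in 1.02% of the genes it tested. Its adjusted p was 0.0548 for Ifit3, 0.0510 for Ifit3b and 0.0685 for Ifit1, and its log2 estimates of 3.17 for Ifit3 and 3.37 for Ifit3b were close to those of DESeq2.

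**Figure D3:**
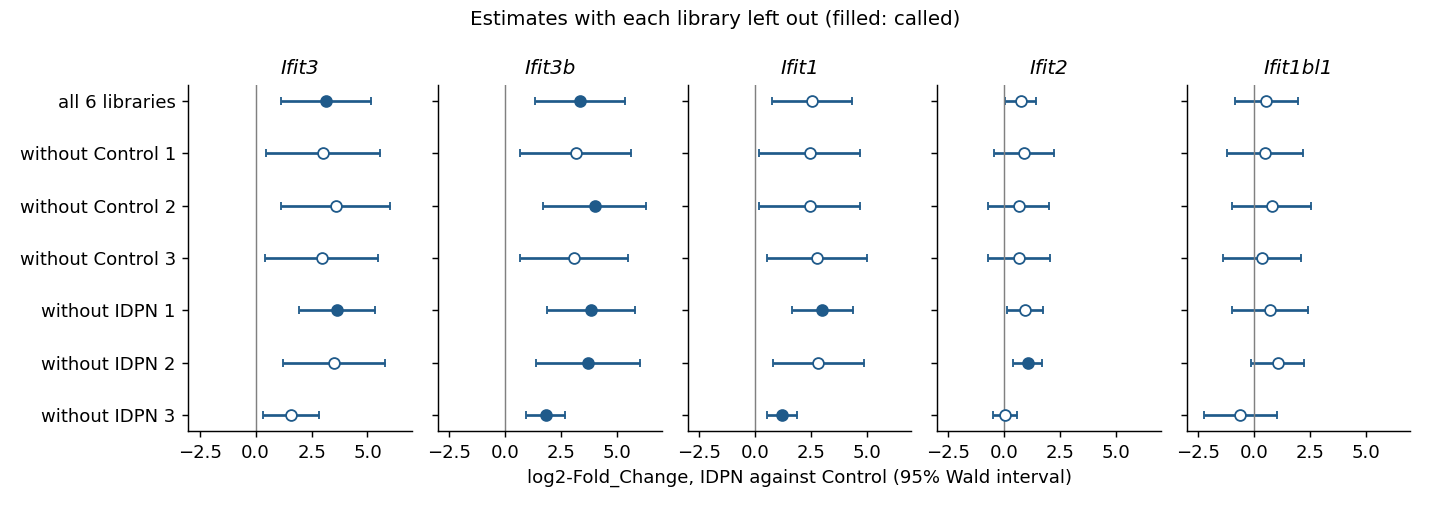
Log2-Fold_Change of each IFIT gene with its 95% Wald interval, from all 6 libraries and with each library left out, filled where the gene was called. The Ifit3 and Ifit3b estimates stay above 1.5 in every fit, and leaving out IDPN 3 gives the smallest estimate for each of the 5 genes, 0.025 for Ifit2.

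The interferons themselves, the ligands of the pathway, were not detected. All 21 interferon genes listed, among them Ifnb1, Ifng and the Ifna genes, had 0 counts in every library. A count of 0 allows up to 3 counts, or 0.0689 to 0.0741 CPM in these libraries, for counting error alone. Of the 16 genes of interferon receptors and signalling, 4 were upregulated and none was downregulated. The subunits of the type I receptor were not called, with a log2-Fold_Change of 0.013 for Ifnar1 (DESeq2 Padj = 0.986) and −0.099 for Ifnar2 (0.870). Stat2 rose from 444 to 874 mean normalized counts (log2-Fold_Change 0.98, DESeq2 Padj = 0.000150), and Irf9, which takes part in binding the ISRE, from 741 to 2123 (1.52, 2.53e-08). Usp18, which restrains signalling from the type I receptor, rose from 111 to 1026 (3.21, 1.12e-21).

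Of the 19 sensors of nucleic acid and their relays, 16 were abundant enough to test and 5 were upregulated. Irf7, the factor that amplifies interferon responses, had a log2-Fold_Change of 1.94 (DESeq2 Padj = 1.11e-06), Irf1 one of 0.90 (0.00465) and Ifih1, which senses long double-stranded RNA, one of 0.75 (0.00558). Zbp1, a sensor of Z-form nucleic acid, went from 1.17 to 24.7 mean normalized counts (DESeq2 Padj = 0.00909). Of the 53 other induced effectors, 51 were tested, 19 were upregulated and none was downregulated, and the median log2-Fold_Change of those tested was 1.00. It was 0.58 for the sensors and 0.23 for receptors and signalling, against 0.015 over all genes tested. The effectors with the lowest DESeq2 Padj were Gbp3 (log2-Fold_Change 1.78, DESeq2 Padj = 2.53e-08), Oasl2 (1.62, 6.24e-08), Oasl1 (3.59, 2.80e-07) and Ube2l6 (1.02, 6.10e-07). Among the 25 cap-modifying and translation initiation genes, which act on the RNAs and factors that IFIT proteins bind, only Eif3b was called (0.79, DESeq2 Padj = 0.00438), and their median was −0.011. Without IDPN 3, the upregulated genes numbered 5 for receptors and signalling, 1 for the sensors, 16 for the effectors and 0 for the cap and translation genes.

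IDPN 3 was the highest IDPN library for all 5 IFIT genes. Ifit3 in IDPN 3 was 6.85 times the mean of IDPN 1 and IDPN 2, Ifit3b 6.79 times, Ifit1 5.60 times, Ifit1bl1 4.75 times, Ifit2 2.89 times and the sum of the 5 genes 6.05 times. Over the 28 called genes among receptors, signalling, sensors and effectors this ratio had a median of 1.23 and ran from 0.764 (Gbp3) to 5.41 (Zbp1), although a test that weighs the spread within groups favours genes that are even across animals. For Irf9 it was 0.988 and for Usp18 1.71. Of the 11770 genes whose normalized counts averaged 100 or more, 5 reached the ratio of the IFIT sum, and Ifit3 and Ifit3b were 2 of them. The others, named after their values were seen, were the chemokine gene Cxcl10 (49.2 times), the gene model Gm28048 (19.9 times) and Iigp1 (7.75 times). Cxcl10 had 2.43, 18.5 and 5.34 normalized counts in Control and 21.5, 14.1 and 874 in IDPN, so that IDPN 3 alone stood far above the rest. It is 1 of the 2 effectors without a test, because DESeq2 gives no p where a single library dominates a gene. IDPN 3 was singled out after its values were seen, so these ratios are descriptions of 1 library.

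**Figure D4:**
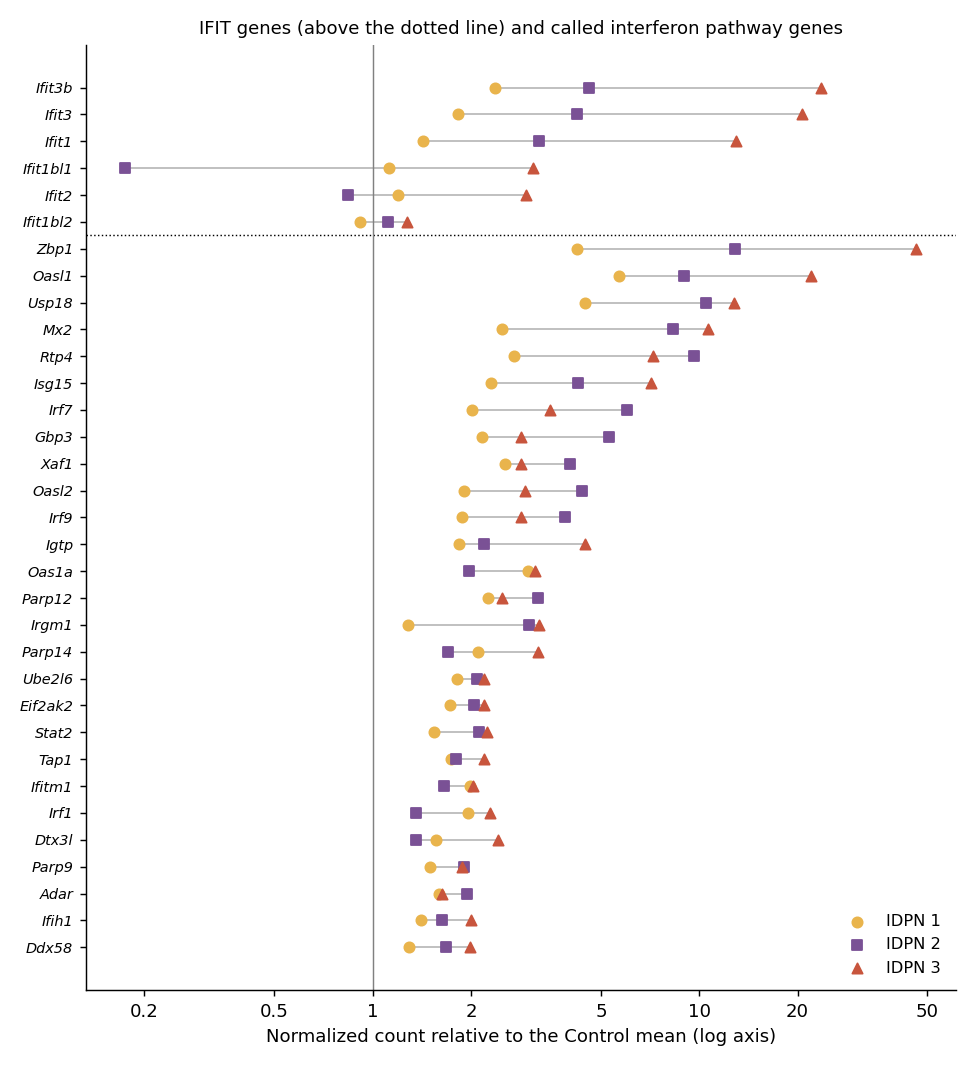
Normalized count in each IDPN library relative to the Control mean (log axis), for the IFIT genes above the dotted line and for 27 of the 28 called genes of the interferon pathway below it. The 3 libraries are spread widest for Ifit3b, Ifit3, Ifit1, Ifit1bl1 and Zbp1, while most others lie within a narrower range and some, such as Irf9, peak in IDPN 2; the Control mean of Zbp1 was only 1.17.

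Outside the family, the 8 genes, of those averaging 100 or more normalized counts, whose profile over the 6 libraries was closest to the IFIT sum were Iigp1, Rsad2, Adamts1, Igtp, Irgm2, Anxa1, Chia1 and Mx2. Symbols that are only clone or gene model numbers, such as Gm28048, were left out of this ranking. Closeness was the root mean square difference between log2(normalized count + 1) profiles, each centred on its own mean, so a smaller value means a closer profile. It was 0.265 for Iigp1, an interferon-inducible GTPase, and 0.440 for Rsad2, which encodes the antiviral enzyme viperin, and from 0.641 to 0.760 for the other 6. Within the family it was 0.262 for Ifit1, 0.345 for Ifit3 and 0.550 for Ifit3b, but 0.991 for Ifit2, 1.38 for Ifit1bl2 and 1.498 for Ifit1bl1. A member with a large share of the sum shapes it, so the members' distances are not a test of which of them move together. Iigp1 and Rsad2 were thus nearer to the sum than Ifit2. Iigp1 had 122, 104 and 89.0 normalized counts in Control and 193, 263 and 1766 in IDPN, and Rsad2 84.9, 69.3 and 111 in Control and 131, 159 and 844 in IDPN. Their peak in IDPN 3 and the lack of overlap between groups follow from their choice by likeness to the sum. Like Ifit1 neither was called (DESeq2 Padj = 0.0539 and 0.143).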

How the data were processed

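The authors aligned paired reads of 76 bases to GRCm38 with STAR 2.5.3a and estimated gene counts with RSEM (2.3.0) on GENCODE M15, the versions being those of the submitters' processing notes, from SMART-seq2 libraries made from 6 to 11 ng of RNA. What was deposited is a table of such expected counts in whole numbers, with no normalization applied. RSEM divides reads that match several genes. The protocol has neither strand information nor molecular identifiers, so counting limits cover counting error only. The batch field of the labels holds the same entry for all 6 libraries.

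The whole table was fitted with DESeq2 1.42.0 in R 4.3.3 (Wald test, median-of-ratios size factors, independent filtering at 0.05), the study's tool and thresholds. The edgeR 4.0.16 quasi-likelihood test, other scalings and filters, and leaving out each library were alternatives. The code was checked on simulated counts. The members and lists were chosen with earlier results of these data known. Named genes were the Ifit symbols, at most 4 called genes per list with the lowest Padj, and the 8 closest profiles. Cell type markers, Ifnb1, Ifng, Ifnar1 and Ifnar2 were named outside this rule, and Cxcl10 and Gm28048 after their values were seen. Coordinates and exon lengths came from GENCODE M21 (GRCm38), a later release than the authors', and promoter windows from RefSeq, which held all 6 Ifit symbols. Each list's counts stand in the report. Single genes within these lists that are left unnamed are not reported here. Endothelial markers, a further list, summed to 1863 to 2389 in Control and 1433 to 1775 in IDPN (1 of 4 genes downregulated), and the 6 supporting cell markers to 19269 to 28223 and 18599 to 23576 normalized counts (1 upregulated).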

Additional observations from a re-analysis of the deposited data

How the results depend on the processing

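DESeq2 called 2 of the 5 IFIT genes. The edgeR test called 0 (3 at an unadjusted p under 0.05), the DESeq2 test against a fold change of 1.5 called 0 (3 at an unadjusted p under 0.05), and DESeq2 without independent filtering called 1, Ifit3b. Leaving out each library in turn gave between 0 (without Control 1 or Control 3) and 3 (without IDPN 1). Total-count scaling, which shifted the median gene by 0.25 on the log2 scale, called 3, adding Ifit1 (DESeq2 Padj = 0.0499), and no scaling turned the direction of any Ifit gene. The log2 ratio of the IFIT sum lay between 1.25 (without IDPN 3) and 3.14 (without IDPN 1), and kept its sign in all 10 alternatives run. Interferon pathway genes called numbered 28, against 40 with total-count scaling (effectors 29 in place of 19), 20 with edgeR (sensors 2 in place of 5) and 8 when tested against a fold change of 1.5, and lay between 22 (without IDPN 3) and 34 (without IDPN 1) with a library left out. Over all genes tested, 2.32% were upregulated in the main fit, 1.02% with edgeR and 1.57% without IDPN 3. For the other settings this share is not given, so their IFIT and pathway counts are descriptions only. The low-count genes Ifit1bl1 and Ifit1bl2 turned direction, the first to −0.61 without IDPN 3 (1.08 at most, without IDPN 2) and the other to −0.36 without Control 3 (1.00 at most, without Control 2). With the mean of the members' log2 values in place of their sum, 5 of the 8 closest genes remained. The cause of these differences was not tested, and the fits with a library left out also had fewer samples. No paired analysis was possible because the labels carry no replicate numbers, and those used here only name the animals. The p-values measure the spread between these 6 animals, some of which have a code prefix in common.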
